A study of Homo sapiens with 24 samples.

Results

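The 10 genes described here are DAXX, ATRX and the genes around them in the deposition of histone H3.3. They are the 2 genes that encode H3.3 (H3-3A and H3-3B), the subunits of the HIRA complex and their relatives (HIRA, UBN1, UBN2 and CABIN1), and the paired chaperones ASF1A and ASF1B. They were taken as a list by symbol from the 57736 genes of the count table. The list was chosen with earlier results of these data known. All 10 were found and all 10 passed the filter on low counts in both series and in the model of all libraries.

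RNA-seq was done in U87-T, a human glioblastoma line (U87) that carries a TERT transgene. DAXX_KO and ATRX_KO are knockout lines of U87-T made with CRISPR guides, each a single-cell clone with features of ALT, the telomere maintenance that works without telomerase, and WT is U87-T with the control vector. There were 24 libraries in 2 series. The DAXX series held WT and DAXX_KO and the ATRX series held its own WT and ATRX_KO, each as a control that the labels call untreated and after etoposide, a topoisomerase II poison that breaks DNA, with 3 libraries per group. The dose and time of etoposide are not stated for the RNA-seq. Since each knockout is 1 clone, the knockout and whatever else sets that clone apart cannot be told apart, and the labels do not say whether the 3 libraries of a group came from separate cultures. The study states in general that its experiments were done in biological replicates, without naming these libraries, so the p-values measure the spread between these libraries, which may in part be technical.

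DAXX and ATRX form a complex in which DAXX holds the histone H3.3-H4 dimer and ATRX, a SNF2-type chromatin remodeller, brings the complex to telomeres, pericentromeres and other repeats. HIRA, with its partners UBN1 or UBN2 and CABIN1, deposits H3.3 at genes and promoters independently of DNA replication. ASF1A and ASF1B hand H3-H4 dimers to the downstream chaperones, and ASF1B is the copy tied to proliferating cells. H3-3A and H3-3B encode the same protein, so their transcripts add up to one pool of H3.3. Loss of ATRX or DAXX is the change most often found in tumours that use ALT.

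Library totals were 6928950 to 13298557 counts, and levels are given in CPM, the count scaled to library size after TMM. A count of 0 still allows up to 3 counts, or 0.217 to 0.405 CPM by library, a limit that covers counting error only. The markers of the glioma line were present (VIM in every library at 1193 CPM or more, and NES, CD44, TNC and FN1 above that limit in all 24), GFAP passed the limit in 1 library and S100B was at 0 in all 24. The leukocyte gene CD3E and the epithelial gene KRT5 were each at 0 in 19 libraries, PTPRC of leukocytes and EPCAM of epithelia reached 1.76 and 2.71 CPM at most, while SNAP25, a gene of neurons, was counted in every library at 2.55 to 20.5 CPM. A genotype tag on the DAXX_KO libraries names ATRX, and the titles were followed.

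In bulk RNA, fewer cells that express a gene and less RNA per cell cannot be told apart. A QuantSeq library reads the 3′ end of a transcript once, so CPM does not grow with transcript length and levels of different genes can be set side by side. In the WT controls of the DAXX series H3-3B was highest with 1919 CPM (1890.2 to 1961), and H3-3A followed with 1067 ± 72.3 (SD, n = 3, as for every ± here). ATRX with 229 ± 14.2, ASF1B with 139 ± 6.61 and UBN1 with 118 ± 4.33 formed the middle. UBN2 had 47.5 ± 3.85, DAXX 33.9 ± 1.24, CABIN1 31.2 ± 5.33 and ASF1A 24.6 ± 2.37, and HIRA came last with 3.87 ± 0.606. Of these neighbours in the order, DAXX and CABIN1 overlapped, as did CABIN1 and ASF1A. In the WT controls of the ATRX series the order of H3-3B, H3-3A and HIRA at the ends was the same, ASF1B (216 ± 6.36) stood above ATRX (192 ± 4.63), and UBN2, CABIN1 and DAXX overlapped along the order. HIRA had only 6 to 55 counts per library, and its values are the least precise of the list.

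**Figure D1:**
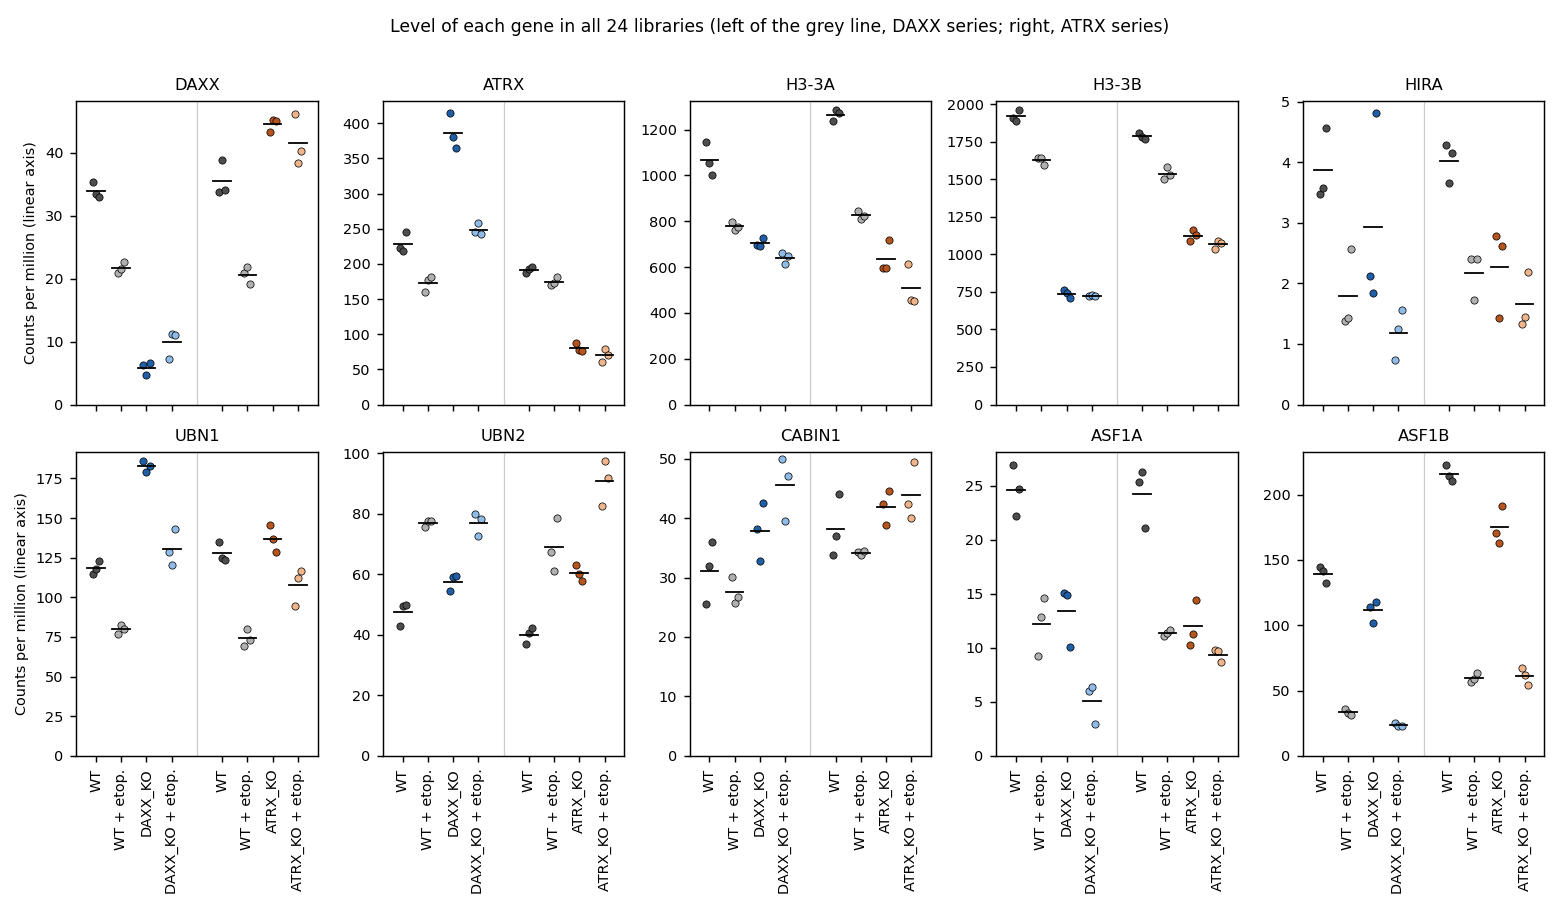
CPM (linear axis from 0, one scale per gene) of the 10 genes in each of the 24 libraries, where a point is a library and a black line the mean of 3. DAXX was at 4.62 to 6.62 in the DAXX_KO controls and above 32 in every WT control, H3-3B was lower in every knockout library than in every WT library, and ASF1B was lower with etoposide in WT of both series and in both knockouts.

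Members were called at an adjusted p under 0.05 in edgeR's quasi-likelihood test, adjusted over all genes tested. In the controls, 8 of 10 were called in DAXX_KO against WT (3 higher, 5 lower), where 53.4% of all genes tested were called, and 8 of 10 in ATRX_KO against WT (2 higher, 6 lower), where 41.8% were. With etoposide, 8 were called in DAXX_KO (3 higher, 5 lower) against 53% of all genes, and 7 in ATRX_KO (4 higher, 3 lower) against 45.9%. Etoposide against control called 9 in WT of the DAXX series (1 higher, 8 lower), where 60.2% of all genes were called, 7 in DAXX_KO (2 higher, 5 lower) against 54.5%, 8 in WT of the ATRX series (1 higher, 7 lower) against 61.5%, and 5 in ATRX_KO (1 higher, 4 lower) against 49.5%. The median log2 fold change of the members was −0.35 in DAXX_KO and −0.49 in ATRX_KO without etoposide, and −0.51 and −0.70 for etoposide in the WT of the DAXX and of the ATRX series. Over all genes tested these medians were 0.02, 0.02, 0.02 and 0.07. Counts of this size among 10 genes are not read as particular to them, and the values of the single genes follow. Groups that do not overlap were common too. They made up 50.9% (ATRX_KO against WT without etoposide) to 68.7% (etoposide in WT of the ATRX series) of all genes tested in a comparison. The count of the etoposide response in ATRX_KO fell to 3 with only its control and etoposide libraries in the model, and also without ATRX_KO control replicate 3 or ATRX_KO etoposide replicate 3.

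**Figure D2:**
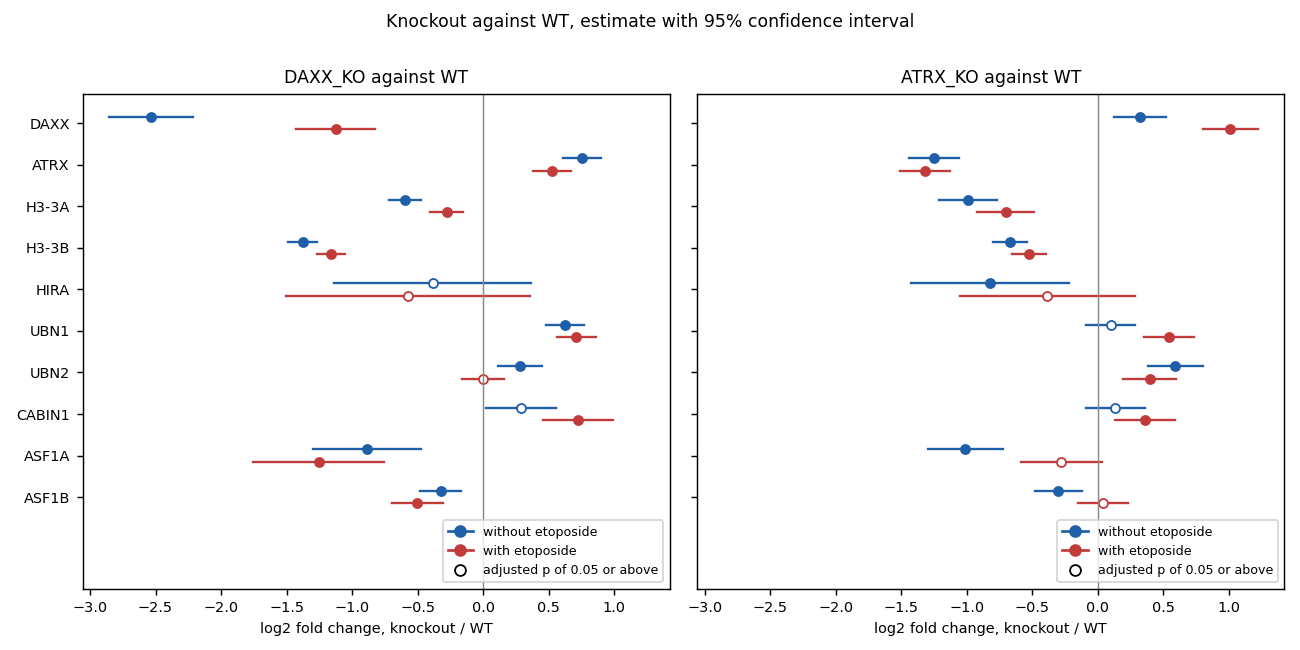
Log2 fold change of knockout against WT (horizontal axis) for the 10 genes, with the 95% confidence interval as a line, without (blue) and with (red) etoposide, filled where the adjusted p was under 0.05. H3-3A and H3-3B lay left of 0 in all 4 comparisons, and DAXX and ATRX lay on opposite sides of 0 in each knockout.

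DAXX, on chromosome 6 (GRCh37, 33286335 to 33290793, minus strand, 8 exons), was measured first because it is the target in DAXX_KO. Its level was 35.3, 33.5 and 32.9 CPM in the WT controls of the DAXX series and 6.25, 4.62 and 6.62 in DAXX_KO. The groups did not overlap. DAXX was 5.79-fold lower in DAXX_KO (log2 difference −2.53, SE 0.15, adjusted p = 7.3e-11). DAXX_KO still gave 35 to 55 counts per control library. The libraries tag the 3′ end of the mRNA and the edited positions are not given in the sources used here, so these counts measure DAXX mRNA and not the deletion.

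The response of DAXX mRNA to etoposide differed between WT and each knockout. In WT of the DAXX series it went from a mean of 33.9 ± 1.24 to 20.8, 21.5 and 22.7 CPM (log2 difference −0.65, SE 0.13, adjusted p = 0.00023). In WT of the ATRX series it went from 33.8, 38.9 and 34.0 to 20.9, 21.8 and 19.1 CPM (log2 difference −0.79, SE 0.10, adjusted p = 2.8e-06). Both WT responses were a fall, and in both the groups were apart.

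In DAXX_KO the remaining DAXX mRNA rose with etoposide, to 7.31, 11.2 and 11.1 CPM (log2 difference 0.76, SE 0.17, adjusted p = 0.0010). The difference from the WT response was 1.41 (SE 0.22, adjusted p = 0.00019), at percentile 98.3 of the interaction estimates of all genes tested. In ATRX_KO the level was 43.2, 45.3 and 45.0 CPM without and 46.2, 38.3 and 40.3 with etoposide, so the groups overlapped and the log2 fold change was −0.10 (95% interval −0.29 to 0.10, adjusted p = 0.40). Here too the response differed from that of WT, by 0.69 (SE 0.14, adjusted p = 0.0027). These interactions were called for 2 of the 10 members in the DAXX series (DAXX and H3-3A), where 14.2% of all genes were, and for 3 in the ATRX series (DAXX, UBN1 and ASF1A), where 16% were. Of these 5, those of DAXX in both series were called with each library left out in turn, and the other 3 were not. The count in the ATRX series was 1 without ATRX_WT control replicate 1. All 5 were above 0, and in each the WT level fell with etoposide while that of the knockout fell less, did not pass or, for DAXX in DAXX_KO, rose.

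ATRX_KO had more DAXX mRNA than WT. Without etoposide the log2 difference was 0.32 (SE 0.093, adjusted p = 0.0100), with all 3 ATRX_KO libraries above all 3 WT libraries. With etoposide it was 1.01 (SE 0.10, adjusted p = 3.2e-07), a 2.02-fold difference that rests on the WT level of 20.6 ± 1.38 CPM against 41.6 ± 4.11 in ATRX_KO.

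ATRX, on chromosome X (76760358 to 77041719, minus strand, 35 exons), had 187, 193 and 196 CPM in the WT controls of the ATRX series and 87.5, 78.1 and 76.1 in ATRX_KO. The groups were apart (log2 difference −1.25, SE 0.09, adjusted p = 9.4e-09), a level 2.38-fold lower. The same limit as for DAXX holds, since the position of the edit against the counted 3′ end is not given. In the DAXX series ATRX was 222, 219 and 245 CPM in WT and 414.5, 380.0 and 364 in DAXX_KO (log2 difference 0.76, SE 0.07, adjusted p = 2.3e-08). So each knockout had less mRNA of its own target and more of the partner's, and the 2 knockout effects differed for DAXX by −2.85 (SE 0.17, adjusted p = 1.2e-12) and for ATRX by 2.01 (SE 0.11, adjusted p = 2.9e-13), as DAXX_KO minus ATRX_KO on the log2 scale. With etoposide DAXX_KO differed from WT by −1.13 for DAXX and 0.53 for ATRX (adjusted p = 2.3e-06 and 3.6e-06), and ATRX_KO by −1.32 for ATRX (adjusted p = 5.8e-09). The knockout effects then differed by −2.16 for DAXX and 1.82 for ATRX (adjusted p = 2.2e-10 and 3.7e-12).

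ATRX fell with etoposide in WT of the DAXX series, to 160.4, 177 and 181 CPM (log2 fold change −0.41, adjusted p = 5.4e-05), and in DAXX_KO, to 246, 257 and 242 CPM (−0.64, adjusted p = 2.0e-07). It did not pass in WT of the ATRX series (−0.13, 95% interval −0.32 to 0.05, adjusted p = 0.20, or 0.025 with only the compared groups in the model) nor in ATRX_KO (−0.20, 95% interval −0.39 to −0.01, adjusted p = 0.080). No interaction was called for ATRX (−0.23 in the DAXX series, adjusted p = 0.13), other than in the DAXX series under library totals alone (−0.34, adjusted p = 0.022). In ATRX_KO the fall was called without filter on low counts and without ATRX_KO etoposide replicate 2 (adjusted p = 0.042 and 0.012, within 0.012 to 0.30 over its alternatives).

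**Figure D3:**
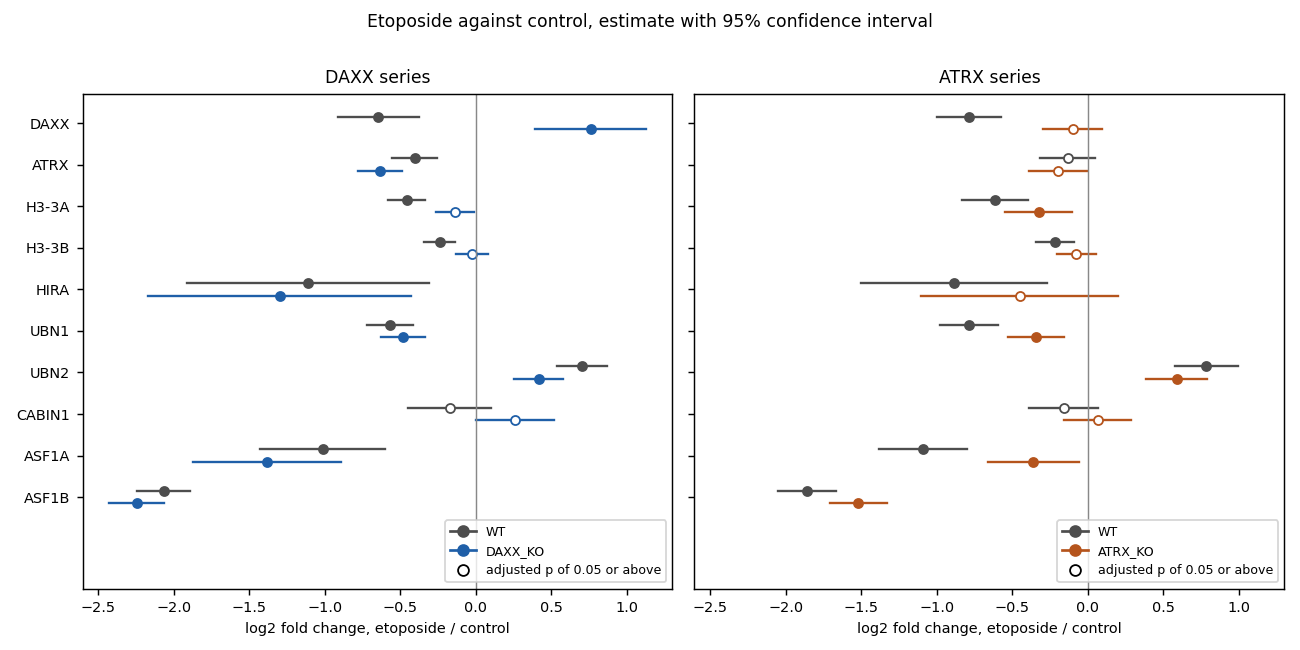
Log2 fold change of etoposide against control (horizontal axis) for the 10 genes with the 95% confidence interval, in WT (grey) and knockout (coloured) of each series, filled where the adjusted p was under 0.05. DAXX moved to opposite sides in WT and DAXX_KO, UBN2 lay right of 0 and ASF1B far left of 0 in WT of both series and in both knockouts.

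The genes of H3.3 itself were lower in both knockouts. H3-3B, on chromosome 17 (73772515 to 73781974, minus strand, 4 exons), was 1906, 1890.2 and 1961 CPM in the WT controls of the DAXX series and 764, 745 and 706 in DAXX_KO. It was 2.60-fold lower in DAXX_KO (log2 difference −1.38, SE 0.05, adjusted p = 8.4e-14), and the groups were far apart. In the ATRX series it was 1809.8, 1778 and 1769 CPM in WT and 1086, 1159 and 1127 in ATRX_KO (log2 difference −0.67, SE 0.06, adjusted p = 1.4e-07). With etoposide the differences were −1.16 and −0.53 (adjusted p = 1.4e-12 and 2.1e-06).

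H3-3A, on chromosome 1 (226249552 to 226259720, plus strand, 4 exons), showed the other order. It was 1146, 1054 and 1003 CPM in the WT controls of the DAXX series and 695, 693 and 728 in DAXX_KO (log2 difference −0.60, SE 0.06, adjusted p = 6.5e-08). The ATRX series had 1237, 1285 and 1271 CPM in WT and 595, 594 and 717 in ATRX_KO (log2 difference −0.99, SE 0.10, adjusted p = 8.1e-07). With etoposide the differences were −0.28 and −0.70 (adjusted p = 0.00054 and 3.2e-05), and no library of either knockout reached the etoposide-treated WT libraries of its series.

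The knockout effects therefore differed in size between the knockouts for both genes, in opposite directions. As DAXX_KO minus ATRX_KO, the difference for H3-3B was −0.71 (SE 0.07, adjusted p = 1.3e-08) in the controls and −0.66 (SE 0.07, adjusted p = 5.4e-08) with etoposide. For H3-3A it was 0.40 (SE 0.12, adjusted p = 0.013) and 0.40 (SE 0.12, adjusted p = 0.012). The first H3-3A value lost its call without any one of 3 libraries (DAXX_WT control replicate 3 and ATRX_KO control replicates 1 and 2, adjusted p = 0.051 to 0.057, against a range of 0.0017 to 0.057 over all libraries left out). Across the members, 5 of 10 knockout effects differed between the knockouts in the controls (34.1% of all genes did) and 7 of 10 with etoposide (34.5%). These comparisons also hold the difference between the series, since each knockout was set against its own WT.

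Added together, the H3.3 transcripts were 2986 ± 57.5 CPM in the WT controls of the DAXX series and 1444 ± 13.2 in DAXX_KO. WT of the ATRX series had 3050.4 ± 11.7 CPM and ATRX_KO had 1759 ± 81.6. H3-3B made up 62.5%, 64.2% and 66.2% of the sum in the WT controls of the DAXX series and 52.4%, 51.8% and 49.2% in DAXX_KO. The mean share was 13.1 points lower (pooled SD 1.76, exact two-sided permutation test p = 0.10, adjusted p = 0.16). The share in the ATRX series was 59.4%, 58.0% and 58.2% in WT and 64.6%, 66.1% and 61.1% in ATRX_KO, 5.39 points higher (pooled SD 1.88, exact p = 0.10, adjusted p = 0.16). With 3 libraries against 3 this test cannot go below 0.10, and in both comparisons the groups did not overlap. Of the 8 comparisons of this share that were made, 5 gave that smallest p, and the adjusted values are over these 8. These shares leave out the reads given to pseudogenes of H3-3A, which are taken up below and change some of these results.

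**Figure D4:**
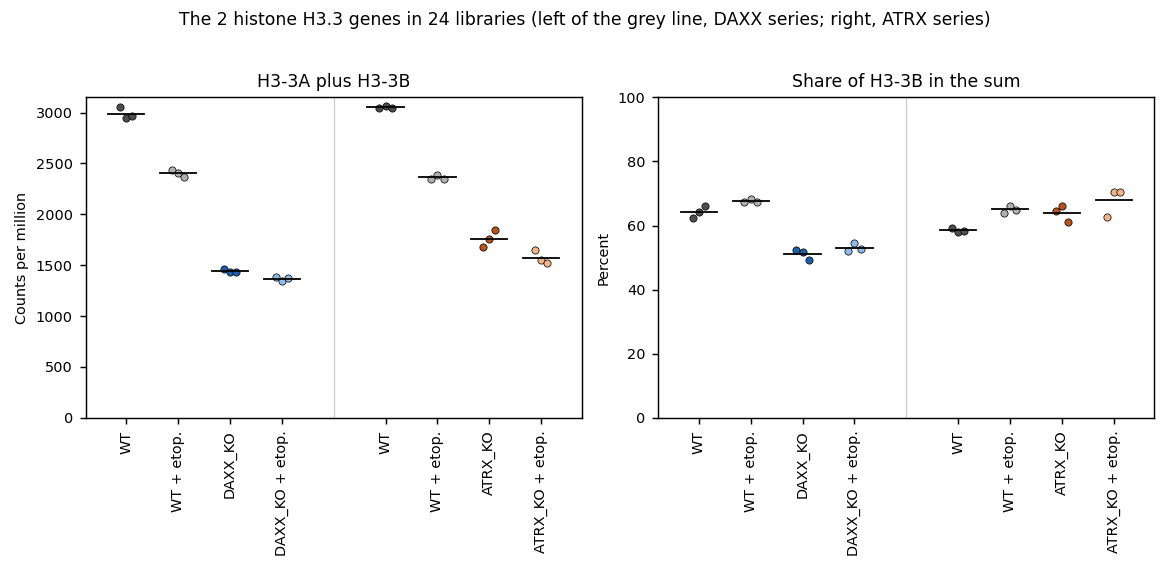
Left, the summed level of H3-3A and H3-3B in CPM, and right, the percent of that sum that came from H3-3B, in each of 24 libraries (points) with the mean of 3 as a black line. The WT controls lay at 2944 to 3063 and the knockout controls at 1435 to 1844, and the share was lowest in the DAXX_KO libraries.

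Etoposide lowered both genes in both WT groups. H3-3A fell by 0.46 and 0.62 on the log2 scale in the WT of the DAXX and of the ATRX series (adjusted p = 1.5e-06 and 6.5e-05), and H3-3B fell by 0.24 and 0.22 (adjusted p = 0.00038 and 0.0050). In DAXX_KO neither passed, with −0.14 for H3-3A (95% interval −0.26 to −0.01, adjusted p = 0.055) and −0.03 for H3-3B (−0.13 to 0.08, adjusted p = 0.69). In ATRX_KO H3-3A fell by 0.33 (adjusted p = 0.015) while H3-3B had −0.08 (95% interval −0.20 to 0.05, adjusted p = 0.32). Under library totals alone, which moves the median of all genes by −0.11 in the DAXX_KO response, both genes were called lower in DAXX_KO (−0.24 and −0.13, adjusted p = 0.0023 and 0.032). H3-3A was also called there without DAXX_WT control replicate 1 or 3 (−0.14 in each, adjusted p = 0.050 and 0.041), and with the counts of its pseudogenes added it had −0.05 (adjusted p = 0.44). The fall of H3-3A in ATRX_KO lost its call with only the compared groups in the model (adjusted p = 0.079), and without ATRX_KO control replicate 3 or without ATRX_KO etoposide replicate 2 or 3 (adjusted p = 0.067 to 0.078, against a range of 8.2e-05 to 0.078 over all libraries left out).

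The difference between the WT and DAXX_KO responses of H3-3A was 0.32 (SE 0.08, adjusted p = 0.014). It was lost without DAXX_WT control replicate 1 (0.26, adjusted p = 0.056) and under library totals alone or the model of 24 libraries (adjusted p = 0.13 and 0.084, against a range of 0.00070 to 0.13 over settings other than a library left out). For H3-3B the difference of the responses was 0.21 (SE 0.07, adjusted p = 0.052), and it was called under RLE size factors, DESeq2 and the model of 24 libraries (adjusted p = 0.041, 0.014 and 0.039).

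The counts of H3-3A are uncertain at its 3′ end, because processed pseudogenes carry the same sequence. Of all windows of 75 bases, the read length, in its transcript, 91.3% occur unchanged at the locus of H3P6 on chromosome 2 (175584636 to 175585046), a copy without introns. H3P6 was given 11.8% to 24.5% of the sum of H3-3A and H3P6 in the WT controls and 6.18% to 25.5% in the knockout controls. In ATRX_KO with etoposide the share was 0.820% in replicate 1, which had the highest H3-3A (614 CPM), and 15.7% and 20.1% in the others (456 and 452 CPM). None of the windows of H3-3B occur in any of the 9 pseudogene loci searched. With the pseudogene counts added to their parent genes, the DAXX_KO value of H3-3A was −0.58 and the ATRX_KO value −0.95 (adjusted p = 1.8e-08 and 6.2e-09), and the difference of its etoposide responses in the DAXX series was 0.42 (adjusted p = 0.00070). With etoposide, the DAXX_KO effect on H3-3A was −0.16 in place of −0.28 (adjusted p = 0.013), and the fall of H3-3A in ATRX_KO was −0.38 (adjusted p = 0.00014). As DAXX_KO minus ATRX_KO, the knockout effects on H3-3A then differed by 0.36 without and 0.56 with etoposide (adjusted p = 0.00051 and 2.4e-06). Counting pseudogenes in the H3.3 sum gave H3-3B a mean share of 58.0% for WT controls of the DAXX series. For DAXX_KO controls it was 44.4%, so H3-3A with its pseudogenes was the larger part. Without etoposide the share differed from WT by −13.7 points for DAXX_KO and 4.68 for ATRX_KO (exact permutation p = 0.10 each). The exact p of ATRX_KO against WT with etoposide went from 0.40 to 0.10. For etoposide against control it went from 0.30 to 0.10 (ATRX_KO) and from 0.20 to 0.60 (DAXX_KO).

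Promoter sequence is shown for H3-3B and H3-3A, the pair that fell together, so that both may be compared. RefSeq (GRCh38.p14) held promoters for 8 of the 10 genes and 12 starts in all, 4 of them for H3-3A, of which the most downstream is given. Each line holds the 250 bases before the start, 5′ to 3′ on the strand of the gene, with CCAAT (either strand, so also ATTGG) and TATAAA (either strand) in capitals.
H3-3B, chr17:75779780-75780029, minus strand: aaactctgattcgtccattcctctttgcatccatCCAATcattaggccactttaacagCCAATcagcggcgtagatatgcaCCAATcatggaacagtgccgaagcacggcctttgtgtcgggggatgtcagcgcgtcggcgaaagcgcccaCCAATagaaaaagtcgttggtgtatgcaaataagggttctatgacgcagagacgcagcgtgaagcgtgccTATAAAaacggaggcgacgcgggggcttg
H3-3A, chr1:226062466-226062715, plus strand: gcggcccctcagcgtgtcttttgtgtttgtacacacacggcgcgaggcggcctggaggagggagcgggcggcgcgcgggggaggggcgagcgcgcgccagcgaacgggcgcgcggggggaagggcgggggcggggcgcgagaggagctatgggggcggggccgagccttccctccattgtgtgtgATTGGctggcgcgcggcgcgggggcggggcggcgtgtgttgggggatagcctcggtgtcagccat
H3-3B held 4 CCAAT matches and a TATAAA that starts 29 bases before the start of the gene, and 52.4% of its bases were G or C. The start shown for H3-3A held 1 CCAAT match, no TATAAA and 75.2% G or C. Its other starts, in order along the chromosome, held 50.4%, 78.4% and 83.2% G or C, with 1, 1 and 0 CCAAT matches and no TATAAA. The contrast in G or C with H3-3B therefore depends on the start chosen. Of the 35116 promoters in the RefSeq table, 32% held a CCAAT, 2.93% held 3 or more and 10.7% held a TATAAA in the same 250 bases. These matches describe the letters and were not tested for use in these cells.

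Of the HIRA complex, HIRA itself was the scarcest. Its level was 3.47, 3.57 and 4.56 CPM in the WT controls of the DAXX series and 2.12, 1.85 and 4.81 in DAXX_KO, and the groups overlapped (log2 fold change −0.39, 95% interval −1.13 to 0.36, adjusted p = 0.39). In the ATRX series it was 4.28, 3.65 and 4.15 in WT and 2.78, 1.42 and 2.62 in ATRX_KO, with −0.82 (SE 0.29, adjusted p = 0.029). HIRA was lower with etoposide in WT of both series and in DAXX_KO (−1.11, −0.88 and −1.30, adjusted p = 0.018, 0.015 and 0.012). Each of these 4 calls was lost without at least 1 library. For ATRX_KO these were ATRX_WT control replicates 1 and 3 and ATRX_KO control replicate 2 (adjusted p = 0.068 to 0.14, in a range of 0.027 to 0.14). For etoposide they were DAXX_WT control replicate 3 and DAXX_WT etoposide replicates 1 and 2 (0.062 to 0.071, in a range of 0.0082 to 0.071), ATRX_WT etoposide replicate 2 (0.060, in a range of 0.0084 to 0.060), and DAXX_KO control replicate 3 and DAXX_KO etoposide replicate 1 (0.16 and 0.056, in a range of 0.0061 to 0.16). Without DAXX_KO control replicate 3, HIRA was also called lower in the DAXX_KO controls (−0.94, adjusted p = 0.046). In that group replicate 3 was the highest, with 4.81 CPM against 2.12 and 1.85. HIRA did not pass for etoposide in ATRX_KO (−0.45, adjusted p = 0.24), nor in DAXX_KO or ATRX_KO against WT with etoposide (−0.57 and −0.39, adjusted p = 0.30 and 0.34).

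UBN1 and UBN2 encode the ubinuclein subunit, which binds H3.3 within the complex. UBN1 was higher in DAXX_KO, with 115, 118 and 123 CPM in WT and 186, 179 and 183 in DAXX_KO (log2 fold change 0.62, SE 0.07, adjusted p = 3.5e-07). In ATRX_KO it was 145, 136 and 128 CPM against 135, 125 and 123 in WT, and the groups overlapped (0.10, 95% interval −0.09 to 0.28, adjusted p = 0.40). The 2 effects differed by 0.53 (SE 0.11, adjusted p = 0.00044). UBN1 fell with etoposide in WT of both series and in both knockouts, by 0.57 and 0.48 on the log2 scale in WT and DAXX_KO of the DAXX series (adjusted p = 1.3e-06 and 7.8e-06), and by 0.79 and 0.34 in WT and ATRX_KO of the ATRX series (adjusted p = 8.5e-07 and 0.0038). The responses of the ATRX series differed by 0.44 (SE 0.13, adjusted p = 0.024), a call lost without ATRX_WT control replicate 1, ATRX_WT etoposide replicate 1 or ATRX_KO etoposide replicates 2 or 3 (adjusted p = 0.051 to 0.066, in a range of 0.0035 to 0.066). After etoposide UBN1 was higher in both knockouts than in WT, by 0.71 and 0.54 (adjusted p = 1.1e-07 and 9.9e-05).

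UBN2 was the one member that rose with etoposide in DAXX_KO, in ATRX_KO and in the WT of both series, which is 1 control line measured in each. In the DAXX series it went from 43.0, 49.4 and 49.97 to 75.8, 77.6 and 77.8 CPM in WT (log2 fold change 0.70, adjusted p = 2.3e-07) and from 54.4, 59.2 and 59.3 to 79.9, 72.6 and 78.4 in DAXX_KO (0.42, adjusted p = 0.00014). In the ATRX series it went from 37.1, 40.6 and 42.4 to 67.3, 61.1 and 78.6 CPM in WT (0.79, adjusted p = 2.6e-06) and from 63.0, 60.2 and 57.9 to 82.7, 97.5 and 92.0 in ATRX_KO (0.59, adjusted p = 6.6e-05). In none of these 4 comparisons did the control and etoposide libraries overlap, which held for 53.7% to 68.7% of all genes tested. Its percentiles among all genes tested were 73.0 to 79.6, so the rise was of a common size. In the controls UBN2 was higher in both knockouts, by 0.28 in DAXX_KO (adjusted p = 0.0057) and 0.59 in ATRX_KO (adjusted p = 0.00012). With etoposide it stayed higher in ATRX_KO (0.40, adjusted p = 0.0025) and did not pass in DAXX_KO (0.00, 95% interval −0.16 to 0.16, adjusted p = 0.98), and these effects differed by −0.42 (SE 0.12, adjusted p = 0.0089).

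CABIN1, a subunit of the complex, was called in 2 of the 8 comparisons within a series. It was 25.5, 32.0 and 36.0 CPM in WT and 38.2, 32.9 and 42.5 in DAXX_KO without etoposide (log2 fold change 0.29, 95% interval 0.02 to 0.56, adjusted p = 0.064), and it passed in neither WT response (−0.17 and −0.16, adjusted p = 0.27 and 0.21). It did not pass in ATRX_KO against WT without etoposide (0.13, adjusted p = 0.33) or for etoposide in ATRX_KO (0.07, adjusted p = 0.63). For etoposide in DAXX_KO it had 0.26 (adjusted p = 0.082), and it was called there under RLE size factors, with at least 10 counts in every library, and without DAXX_KO control replicate 3 or DAXX_KO etoposide replicate 2 (adjusted p = 0.045, 0.042, 0.038 and 0.022). It was called only after etoposide, where DAXX_KO exceeded WT by 0.72 (SE 0.13, adjusted p = 8.7e-05) and ATRX_KO by 0.36 (SE 0.11, adjusted p = 0.011). The second was lost without ATRX_KO etoposide replicate 3 (0.27, adjusted p = 0.061, in a range of 0.0066 to 0.061). Without etoposide DAXX_KO was called higher in 5 alternatives, such as library totals alone (0.47, adjusted p = 0.0029, in a range of 0.0029 to 0.33 over all tried).

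ASF1A, on chromosome 6 (119215316 to 119230336), was lower in both knockouts. It was 27.0, 22.2 and 24.7 CPM in WT and 15.1, 14.9 and 10.1 in DAXX_KO (log2 fold change −0.89, SE 0.20, adjusted p = 0.00076). In the ATRX series it was 25.4, 26.3 and 21.1 in WT and 10.3, 11.3 and 14.5 in ATRX_KO (−1.01, SE 0.14, adjusted p = 1.3e-05), and in neither series did the groups overlap. The 2 effects were not shown to differ (0.13, 95% interval −0.40 to 0.65, adjusted p = 0.75). Etoposide lowered ASF1A in WT of both series, to 12.2 ± 2.70 and 11.4 ± 0.273 CPM (−1.01 and −1.09, adjusted p = 0.00019 and 2.9e-06).

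In DAXX_KO ASF1A fell further with etoposide, to 5.97, 6.42 and 2.91 CPM (−1.38, SE 0.24, adjusted p = 5.3e-05). In ATRX_KO it went to 9.79, 9.68 and 8.67, with −0.36 (SE 0.14, adjusted p = 0.048), a call lost in 10 of 12 fits that left out a library (values −0.47 to −0.21, adjusted p = 0.018 to 0.27) and in 7 of 8 other settings (adjusted p = 0.048 to 0.13), the replicate block among them (−0.36, adjusted p = 0.069). So after etoposide ASF1A was lower than WT in DAXX_KO (−1.26, adjusted p = 0.00018) and did not pass in ATRX_KO (−0.28, 95% interval −0.59 to 0.03, adjusted p = 0.13), and these effects differed by −0.998 (SE 0.29, adjusted p = 0.0095). The responses of WT and ATRX_KO differed by 0.73 (SE 0.20, adjusted p = 0.020), lost without ATRX_WT control replicates 1 or 2 or ATRX_KO control replicate 1 (adjusted p = 0.050 to 0.055, in a range of 0.0044 to 0.055). The 3′ end of ASF1A overlaps MCM9, a gene of the opposite strand, and how the counting used strand is not given in the sources used here. MCM9 had 8.16 ± 1.18 CPM in the WT controls of the DAXX series and 2.91 ± 0.692 with etoposide, and 4.70 ± 0.648 and 2.48 ± 0.490 in DAXX_KO. In the ATRX series it had 6.77 ± 1.87 and 3.93 ± 0.378 in WT, and 7.19 ± 1.25 and 3.62 ± 0.847 in ATRX_KO. So without etoposide MCM9 was not lower in ATRX_KO, where ASF1A was. The part of MCM9 in the values of ASF1A was not tested.

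ASF1B had the largest etoposide response of the list in size in DAXX_KO, in ATRX_KO and in the WT of both series. In the DAXX series it went from 145, 141 and 132 to 35.8, 32.7 and 31.2 CPM in WT (log2 fold change −2.07, SE 0.08, adjusted p = 7.1e-14), a level 4.19-fold lower, and from 114, 102 and 118 to 25.2, 22.8 and 22.5 in DAXX_KO (−2.25, SE 0.09, adjusted p = 6.3e-14). In the ATRX series it went from 223, 214 and 210.3 to 56.4, 58.9 and 63.1 CPM in WT (−1.86, SE 0.09, adjusted p = 2.2e-11) and from 170.5, 163 and 192 to 67.5, 61.8 and 54.1 in ATRX_KO (−1.52, SE 0.09, adjusted p = 5.1e-10). These values lay at percentiles 1.13 to 2.64 of all genes tested. In the controls ASF1B was lower in both knockouts, by −0.32 in DAXX_KO (adjusted p = 0.0012) and −0.30 in ATRX_KO (adjusted p = 0.0088). The value in DAXX_KO was −0.14 (adjusted p = 0.13) under library totals alone, a scaling that moves the median of all genes by 0.18 in that comparison. With etoposide ASF1B was lower in DAXX_KO (−0.50, adjusted p = 0.00016) and did not pass in ATRX_KO (0.04, 95% interval −0.15 to 0.23, adjusted p = 0.76), a difference of −0.56 (SE 0.13, adjusted p = 0.0014).

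In each etoposide response ASF1B fell, as did most of the proliferation genes listed. The summed level of the 20 proliferation genes listed (19 with an ID in the table) went from 5608 ± 33.3 to 1686 ± 33.6 CPM with etoposide in WT of the DAXX series and from 6274 ± 39.3 to 2235 ± 21.0 in WT of the ATRX series. In the knockouts it went from 4030.4 ± 70.0 to 1235 ± 9.93 in DAXX_KO and from 5081 ± 57.6 to 1617 ± 120 in ATRX_KO. Of the 19 tested, 17 and 16 fell in the 2 WT responses, 15 in DAXX_KO and 17 in ATRX_KO, where 30.6%, 29.8%, 27.8% and 25.2% of all genes fell, with the largest falls in BUB1, CCNA2 and TOP2A, genes of mitosis and of the G2 phase. Without etoposide 16 were lower in DAXX_KO and 14 in ATRX_KO, where 26.6% and 21.0% of all genes were lower. Against WT with etoposide, 12 were lower and 2 higher in DAXX_KO, and 10 lower and 2 higher in ATRX_KO. Of all genes, 25.2% and 22.9% were lower there. In that ATRX_KO comparison ASF1B did not move with the lower genes (0.04, not called). The part of proliferation in the values of ASF1B was not tested.

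The promoter of ASF1B is shown because CCAAT boxes and the letters TTTGAA, the core of the cell cycle homology region, mark many promoters of genes expressed in G2. The line holds the 250 bases before the start (RefSeq, GRCh38.p14), with CCAAT and TTTGAA on either strand in capitals.
ASF1B, chr19:14136590-14136839, minus strand: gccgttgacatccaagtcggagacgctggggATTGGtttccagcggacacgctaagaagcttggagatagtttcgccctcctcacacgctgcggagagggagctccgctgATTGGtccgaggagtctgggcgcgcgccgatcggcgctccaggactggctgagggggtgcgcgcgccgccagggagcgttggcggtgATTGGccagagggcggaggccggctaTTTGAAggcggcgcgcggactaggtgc
The 3 CCAAT matches were all on the other strand, starting 219, 140 and 53 bases before the start of the gene, and TTTGAA began 27 bases before it. TTTGAA was in 13.3% of all RefSeq promoters over the same length. The ASF1A promoter held 0 of either.

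The WT libraries of the series were themselves compared without etoposide, to show how far a series alone moved these genes. Here 3 of 10 members were called, where 13.2% of all genes were. ATRX (0.30, adjusted p = 0.014) and UBN2 (0.29, adjusted p = 0.037) were higher and ASF1B (−0.59, adjusted p = 2.8e-05) was lower in WT of the DAXX series. ATRX lost its call without DAXX_WT control replicate 3 or ATRX_WT control replicate 1 (adjusted p = 0.094 and 0.057, in a range of 0.0045 to 0.094), and UBN2 without any one of DAXX_WT control replicates 2 and 3 and ATRX_WT control replicates 1 and 2 (0.076 to 0.16, in a range of 0.025 to 0.16), under library totals alone (0.23, adjusted p = 0.096) and with no filter on low counts (0.29, adjusted p = 0.058). DAXX did not pass (−0.03, 95% interval −0.24 to 0.19, adjusted p = 0.92). H3-3A (−0.20), H3-3B (0.15), HIRA (−0.02), UBN1 (−0.07), CABIN1 (−0.26) and ASF1A (0.07) did not pass either. The summed proliferation genes were 5608 ± 33.3 and 6274 ± 39.3 CPM in these groups.

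The members whose responses to etoposide were not shown to differ between knockout and WT had these values, as knockout minus WT on the log2 scale. In the DAXX series, beside ATRX and H3-3B, they were HIRA (−0.19), UBN1 (0.09), UBN2 (−0.29), CABIN1 (0.43), ASF1A (−0.37) and ASF1B (−0.18). The ATRX series gave −0.07 for ATRX, 0.29 for H3-3A, 0.14 for H3-3B, 0.43 for HIRA, −0.20 for UBN2, 0.23 for CABIN1 and 0.34 for ASF1B. The knockout effects, as DAXX_KO minus ATRX_KO, were not shown to differ without etoposide for HIRA (0.44), UBN2 (−0.31), CABIN1 (0.16), ASF1A (0.13) and ASF1B (−0.02), nor with etoposide for HIRA (−0.21), UBN1 (0.15) and CABIN1 (0.34). Some of these values were called in alternatives. The ASF1B response of the ATRX series was called with DESeq2, library totals alone and the model of 24 libraries (adjusted p = 0.046, 0.049 and 0.025). The UBN2 response of the DAXX series was called under library totals alone (adjusted p = 0.019). CABIN1 was called there without DAXX_WT control replicate 1 (adjusted p = 0.042). UBN2 between the knockouts without etoposide was called in some fits with 1 library left out (adjusted p = 0.027 to 0.047).

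Other chaperones of H3-H4 give the setting. Of 22 such genes, all tested, 18 were lower and 1 higher in DAXX_KO without etoposide, where 26.6% of all genes were lower and 26.7% higher, led by NPM1 (−1.13), a nucleolar histone chaperone, DNAJC9 (−1.001), a heat shock co-chaperone that binds H3-H4, and CHAF1A (−0.79), a subunit of the replication-coupled CAF-1 complex. With etoposide 9 were lower, 2 higher and 11 not called in DAXX_KO (median −0.18), where 25.2% of all genes were lower and 27.9% higher. In ATRX_KO 6 were lower and 2 higher without etoposide, where 21.0% of all genes were lower and 20.8% higher, led by CHAF1B (−0.87), HJURP (−0.57) and HAT1 (−0.55). Without etoposide the median was −0.44 in DAXX_KO and −0.05 in ATRX_KO, against 0.02 over all genes in each. In the test of the difference between the knockouts, 12 of the 22 were lower in DAXX_KO relative to ATRX_KO and 2 higher (17.2% and 17.0% of all genes), with NPM1 at −1.23 (adjusted p = 1.7e-09). Etoposide lowered 18 of 22 in each WT, where 30.6% and 29.8% of all genes fell, led by HJURP (−4.99 and −4.64), the chaperone of the centromeric CENP-A, with DEK (−2.29 and −2.21) and NASP (−2.16 and −1.88).

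Among 18 partners and regulators of DAXX, ATRX and H3.3, 4 were higher and 9 lower in DAXX_KO, and 4 higher and 8 lower in ATRX_KO, without etoposide. Of all genes, 26.7% were higher and 26.6% lower in DAXX_KO and 20.8% and 21.0% in ATRX_KO, so the 4 of 18 that were higher are about the share of all genes. TRIM28, the corepressor that silences repeats with SETDB1, was lower in both (−0.69 and −1.24, adjusted p = 2.0e-05 and 4.6e-08). RPA2 had the largest change of the list in DAXX_KO (−0.84, adjusted p = 1.2e-07), and RPA1 was lower in ATRX_KO (−0.86, adjusted p = 7.1e-07). ZMYND11, a reader of H3.3 trimethylated at lysine 36, was higher in DAXX_KO (0.75, adjusted p = 6.5e-08). MORC3, a protein of PML bodies, was lower in ATRX_KO (−0.82, adjusted p = 0.00016). PML, which recruits DAXX to these bodies, rose in both WT responses to etoposide (0.59 and 0.54, adjusted p = 1.2e-06 and 1.9e-05) and did not pass in DAXX_KO (0.00, adjusted p = 0.99) or ATRX_KO (0.20, adjusted p = 0.060), and the responses differed in the DAXX series (−0.59, adjusted p = 0.00099) and not by the test in the ATRX series (−0.34, adjusted p = 0.054). Over these 18 genes the medians of the knockout effects were −0.14 and −0.15. PML was among the leading genes of the list in the comparisons with etoposide, and its separate responses were added after they had been seen. TRIM28 also differed between the WT controls of the series (−0.45, adjusted p = 0.0068).

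The replication-coupled H3 genes that could be matched gave almost no counts. Of 13 clustered H3 genes listed, 5 were matched by ID and 1 (H3C4) was tested, in the ATRX series and in the model of all libraries. With etoposide H3C4 had 1.81 ± 0.962 CPM in ATRX_KO and 0.511 ± 0.0395 in WT (log2 fold change 1.80, adjusted p = 0.0095). The WT mean was close to the limit of 0.217 to 0.405 CPM and below the minimum count of the filter. H3C4 was therefore tested through libraries where it was high, and its call is not read as a rise in ATRX_KO. It did not pass without etoposide (0.81, adjusted p = 0.22). The summed level of the 5 matched genes was 2.06 ± 0.134 CPM in the WT controls of the DAXX series and 0.528 to 3.85 over all libraries. The unmatched genes of the list were not measured here. The mRNAs of clustered H3 genes mostly end without the poly(A) tail that the kit primes on, so H3.3 cannot be set against the other H3 here.

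Since each knockout is a clone, each member was set beside the 60 tested genes nearest to it, 30 on either side, as a description with no test. Around H3-3B the median log2 fold change without etoposide was −0.63 in DAXX_KO (quartiles −1.17 and −0.18) and −0.46 in ATRX_KO (quartiles −0.79 and −0.00), so the neighbours were lower in the same lines as H3-3B. In DAXX_KO H3-3B lay below the lower quartile, and in ATRX_KO it lay within the quartiles. Around H3-3A the medians were −0.20 and −0.32, with H3-3A within the quartiles in DAXX_KO and below them in ATRX_KO. Around DAXX they were 0.24 in DAXX_KO and −0.09 in ATRX_KO, and around ATRX 0.38 and 0.11, where the members had −2.53, 0.32, 0.76 and −1.25. The neighbours of ASF1A had 0.12 and 0.11, while ASF1A had −0.89 and −1.01. UBN2 in DAXX_KO had 0.28 beside a neighbour median of 0.24. HIRA in ATRX_KO had −0.82 beside −0.38, within the quartiles (−1.11 and 0.18), and ASF1B lay within the quartiles in both knockouts. UBN1 in DAXX_KO (0.62) and UBN2 in ATRX_KO (0.59) lay above the upper quartiles of their neighbours (0.44 and 0.33). The part of these regions in the values of the members was not tested.

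**Figure D5:**
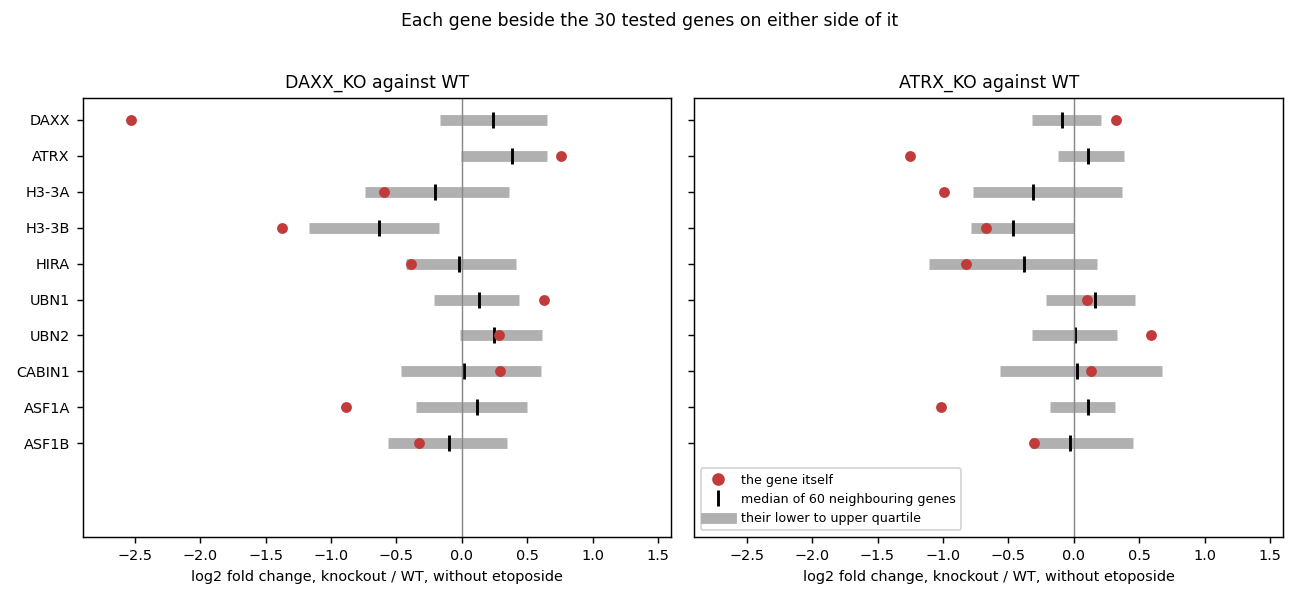
Log2 fold change of knockout against WT without etoposide (horizontal axis) for each of the 10 genes (red point) beside the median (black tick) and the lower to upper quartile (grey bar) of its 60 neighbouring tested genes. The bars of H3-3B lie left of 0 in both knockouts, and DAXX in DAXX_KO, ATRX in ATRX_KO and ASF1A in both lie well away from their neighbours.

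The genes whose pattern was most like that of a member were ranked by Pearson's r of mean log2 CPM over the 8 groups, among 13868 genes tested in both series. They are descriptions, since 8 group means share their series and etoposide. For DAXX these were DNER (r = 0.990) and CYB5A (0.988), for ATRX FAM43B (0.992) and BOC (0.984), and for H3-3A B4GALNT1 (0.987) and PDXP (0.987). For H3-3B they were ESRG and CNTNAP3 (0.997 and 0.991), and for ASF1B KIFC1 (0.997), a mitotic kinesin, and NAA16 (0.995). Between the members, r was −0.79 for DAXX and ATRX, 0.71 for H3-3A and H3-3B and 0.80 for ASF1A and ASF1B.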

How the data were processed

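Expression was measured by RNA-seq in 24 libraries of U87-T cells. The authors prepared QuantSeq 3′ libraries and ran 75-base single-end reads. Their STAR alignments to hg19 were passed to RSEM, with Ensembl gene models (the submitters' processing notes name RSEM 1.2.3). The deposited table gives these expected counts as whole numbers for 57736 genes, with no normalization.

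Symbols and positions were from GENCODE release 44 on GRCh37 (55501 IDs matched). One edgeR 4.0.16 quasi-likelihood model of 4 groups covered the 12 libraries of each series (R 4.3.3), after filterByExpr (minimum count 10, minimum total 15) and TMM, with Benjamini-Hochberg adjustment over all genes and calls at an FDR of 0.05. Differences between the series used 24 libraries and 8 groups. Shares were compared by an exact two-sided permutation test. The scripts were tested on simulated data. Replicates differed by more than counting error (chi-square per degree of freedom 2.16 to 17.1 over 24 pairs of libraries).

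The members and lists were chosen with earlier results of these data known. All 10 members were named in every comparison. From each list up to 3 of the genes with the largest changes called were named, in some of the comparisons. Alternatives were RLE size factors, library totals alone, no filter, at least 10 counts in every library, DESeq2 1.42.0, a replicate block, only the compared groups, 1 model of all libraries, leaving out each library, and adding pseudogene counts.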

Additional observations from a re-analysis of the deposited data

Results flagged for a closer look

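The results below are those in which a test of the difference itself, between knockout and WT or between the knockouts, passed an adjusted p of 0.05 in edgeR. The response to etoposide differed between knockout and WT, as knockout minus WT on the log2 scale, for DAXX (1.41) and H3-3A (0.32) in the DAXX series and for DAXX (0.69), UBN1 (0.44) and ASF1A (0.73) in the ATRX series. The knockout effect without etoposide, as DAXX_KO minus ATRX_KO, differed for DAXX (−2.85), ATRX (2.01), H3-3A (0.40), H3-3B (−0.71) and UBN1 (0.53). With etoposide it differed for DAXX (−2.16), ATRX (1.82), H3-3A (0.40), H3-3B (−0.66), UBN2 (−0.42), ASF1A (−0.998) and ASF1B (−0.56). The knockouts were each set against the WT of their own series, so the difference between the series is part of the second kind of value. Of these 17 values, 4 lost their call without at least 1 library (H3-3A in the DAXX series, UBN1 and ASF1A in the ATRX series, and H3-3A between the knockouts without etoposide), and the other 13 kept it with each library left out.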

How the results depend on the processing

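Of 978 values of members under other settings, 939 kept their direction and side of the threshold, 13 lost a call, 19 gained one and 7 changed sign. With 1 library left out these were 1834, 40, 23 and 23 of 1920. The values that changed sign were not called before or after. UBN2 in DAXX_KO against WT with etoposide was 0.071 under library totals alone and 0.0050 in the model of 24 libraries (−0.024 to 0.042 with 1 library left out, as in the ranges that follow). H3-3B with etoposide in DAXX_KO was 0.012 under RLE size factors, 0.0087 with at least 10 counts in every library and 0.012 with DESeq2 (−0.059 to 0.0035). Under library totals alone the UBN1 interaction of the DAXX series was −0.026, and ASF1B in the difference of knockout effects without etoposide was 0.10 (−0.083 to 0.050). HIRA ranged from −0.43 to 0.37 in the interaction of the DAXX series, from −0.13 to 0.67 and −0.45 to 0.12 in the difference of knockout effects without and with etoposide, and from −0.15 to 0.043 between the WT controls, where DAXX ranged from −0.067 to 0.039 and ASF1A from −0.029 to 0.13. ASF1B in ATRX_KO against WT with etoposide ranged from −0.035 to 0.12, CABIN1 with etoposide in ATRX_KO from −0.032 to 0.13 and the ATRX interaction of the ATRX series from −0.16 to 0.032. The members called for etoposide in ATRX_KO numbered 3 with only the compared groups in the model and 3 to 5 with 1 library left out. They numbered 1 to 4 in the interaction of the ATRX series, and 1 to 5 between the WT controls (1 without DAXX_WT control replicate 3 or ATRX_WT control replicate 1, and 5 without ATRX_KO etoposide replicate 1). With pseudogene counts added, the share of H3-3B was −17.1 points in DAXX_KO against WT with etoposide and 0.422 points for etoposide in DAXX_KO.

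Library totals alone moved the share of calls that were higher from 50.1% to 66.2% in DAXX_KO without etoposide, from 59.1% to 36.8% in the interaction of the DAXX series, from 50.1% to 60.2% in ATRX_KO with etoposide, from 49.7% to 62.7% in the difference of knockout effects without etoposide and from 45.4% to 29.3% between the WT controls. With a replicate block, 1 call of a member was lost (ASF1A with etoposide in ATRX_KO, −0.36, adjusted p = 0.069) and 129 of 130 member results kept theirs. The deviations of same-numbered libraries from their group means had correlations of −0.336 to 0.179 over 84 pairs. The labels do not say what the replicate numbers mean, and whether they mark a shared batch was not tested. HIRA had the lowest counts, with as few as 6 in a library.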
